A study of Mus musculus with 12 samples.

Results

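The genes described here encode 4 subunits of the NMDA-type glutamate receptor (Grin1, Grin2a, Grin2b and Grin3a) and 5 metabotropic glutamate (mGlu) receptors (Grm2, Grm3, Grm5, Grm7 and Grm8). They were taken by name from the gene tables, as 9 of the 23955 genes listed there, and all 9 were among the 14785 genes with enough counts to be tested. Levels were measured by RNA sequencing of cultured mouse cortical neurons in which a lentiviral short hairpin RNA (shRNA) targeted an RNA-editing enzyme, the RNA-binding protein Zfr, or neither.

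NMDA receptors are cation channels that open when glutamate and a co-agonist, glycine or D-serine, are bound while the membrane is depolarised. GluN1, the product of Grin1, is present in every NMDA receptor and binds the co-agonist, and it assembles with GluN2 subunits, which bind glutamate, or with glycine-binding GluN3 subunits. In rodent cortex GluN2B (Grin2b) predominates before birth, GluN2A (Grin2a) appears later, and GluN3A (Grin3a) is most abundant in early postnatal life. The mGlu receptors are coupled to G proteins. Group I receptors such as mGlu5 (Grm5) act through Gq and phospholipase C, whereas group II receptors (mGlu2 and mGlu3, from Grm2 and Grm3) and group III receptors (mGlu7 and mGlu8, from Grm7 and Grm8) act through Gi/o proteins and lower cAMP. In rodents, mGlu3 and mGlu5 are also made by astrocytes.

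All groups consisted of primary neurons from E16.5 cortices of C57BL/6J embryos. Virus was added 1 day after plating, and cells were collected on day 7 from dissection. The groups were shAdar1 (against Adar, which encodes the editing enzyme ADAR1), shAdar2 (against Adarb1, which encodes ADAR2), shZfr (against Zfr), and the control hairpins shControl2 and shControl1. Every group, controls included, received lentivirus made from the pGreenPuro backbone. Each had 2 samples labelled as biological replicates. Replicate 1 of shAdar2 is the sum of 3 technical libraries from RNA of the same neurons. The design text sets shAdar1 and shAdar2 against shControl1, and shZfr against shControl2, for the study of RNA editing. Here all 3 knockdowns are given against both control hairpins. Hairpin sequences, the share of infected cells and whether replicates came from separate litters are not given in the sources used here, so p-values measure the spread between these samples. In whole-culture RNA, fewer cells of a type and less RNA per cell cannot be told apart.

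Grin1 and Grm2 were lower in shControl2 than in shControl1 under every alternative run, and Grm3 had the smallest range of group means. Stretches of 30 bases around the start sites of these genes are shown because they let the promoters of members with wide ranges be set beside that of a member with a narrow one. They come from RefSeq on GRCm38.p6 and are written 5′ to 3′ on the gene's strand, with the GC box letters GGGCGG in capitals. They lie at chr2:25319162-25319191 for Grin1, chr9:106656091-106656120 for Grm2 and chr5:9725341-9725370 for Grm3, all on the minus strand.
Grin1: gtcaggaagcggGGGCGGtgggaggggtag
Grm2: ttgaaagcggcaGGGCGGgccggcggagag
Grm3: cagcgcgcagccGGGCGGGGGCGGgggcag
The GC box stood in all 3 stretches, which were placed on it. RefSeq promoter windows of 300 bases (250 before the start site and 50 after it) were at hand for 5 of the 9 members, 8 windows in all. On both strands the GC box occurred once in the Grin1 window, 4 times in that of Grm2, 2 times in that of Grm3 and once in each of 2 overlapping Grm7 windows. Of 3 windows of Grm8, a member with a 3.5-fold range of group means, 1 held it once and the other two did not. Among all 32851 promoter windows of that length, 35.7% held at least 1. The EGR-type letters GCGNGGGCG, which overlap the GC box, occurred once in the Grin1 window and once in the Grm3 window, against 5.55% of all windows. The cAMP-response letters TGACGTCA were in none of the members' 8 windows and in 1.79% of all windows. These matches describe letters only.

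Libraries held 1.58e+07 to 2.97e+07 expected counts, and each hairpin lowered its target. Adar averaged 53.3 ± 2.43 CPM (counts normalised for library size, with TMM factors between samples) in shAdar1 and 172 ± 27.6 CPM in shControl1 (SD, n = 2 each here and below). Adarb1 averaged 50.2 ± 2.53 CPM in shAdar2 and 120.4 ± 2.77 CPM in shControl1. Zfr averaged 172.6 ± 0.118 CPM in shZfr and 459 ± 52.6 CPM in shControl2. Against the other control hairpin, Adar in shAdar1 stood at 41.5%, Adarb1 in shAdar2 at 52.5% and Zfr in shZfr at 61.9%. Targets also moved outside their own group: Adarb1 fell in shZfr to 49.5% of its level in shControl2, and Zfr fell in shAdar2 to 67.5% of its level in shControl1. Against shControl2, Zfr stood at 41.0% in shAdar2 and 66.9% in shAdar1, and Adar stood at 154% in shAdar2. Against shControl1, Adarb1 in shZfr stood at 39.3%. Adarb1 averaged 47.3 ± 2.62 CPM in shZfr, and Zfr averaged 188 ± 12.6 CPM in shAdar2. The shZfr and shAdar2 groups were thus close in the levels of both genes. Zfr itself was higher in shControl2 than in shControl1 (165% of its level there, adjusted p = 0.000886). Adar and Adarb1 were lower in shControl2, at 74.5% and 79.4% of their levels in shControl1. All 14 pan-neuronal markers were tested. Microglial markers summed to 6.79 to 16.3 CPM over all samples.

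The receptor genes differed between the 2 control hairpins themselves. Of the 9 members, 5 were called higher and 3 lower in shControl2, with shControl1 as the other side, by edgeR's quasi-likelihood test at a Benjamini-Hochberg adjusted p under 0.05 over all genes tested. Among all genes tested, 19.9% were called higher and 23.2% lower in that comparison. The median size of the log2 fold change was 0.73 over the members and 0.51 over all genes tested. With 1 library left out at a time, 2 to 4 members were called higher and 2 to 3 lower.

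Against the control named for each, the knockdowns gave 2, 5 and 4 calls. In shAdar1 against shControl1, 1 member was called higher and 1 lower, against 9.33% and 6.9% of all genes. In shAdar2 against shControl1, 2 were called higher and 3 lower, against 23.2% higher and 23.2% lower of all genes. In shZfr against shControl2, 0 were called higher and 4 lower, against 16.7% and 14.1% of all genes. The median sizes of the log2 fold change were 0.29, 0.43 and 0.58 over the members, and 0.30, 0.52 and 0.41 over all genes. Among these comparisons with the named control, only in the last did the members' median exceed that of all genes. At an unadjusted p under 0.05, 1 member was higher in shZfr than in shControl2. DESeq2 called 0 higher and 5 lower there, and a fit of the 4 compared samples alone called 2 higher and 6 lower. Shares of all genes were not computed for these other settings, so their counts cannot be read against such a share.

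Against the other control hairpin the counts differed again. In shAdar1 against shControl2, 2 members were called higher and 3 lower, beside 19.3% and 13.9% of all genes. In shAdar2 against shControl2, 2 were called higher and 4 lower, beside 32.2% and 27.3% of all genes. In shZfr against shControl1, 1 was called higher and 4 lower, beside 22.8% and 23.4% of all genes. The members' median sizes of the log2 fold change here were 0.53, 0.75 and 0.62. Each exceeded that of all genes (0.42, 0.70 and 0.54). The comparisons of one knockdown share its 2 samples, and comparisons with one control share those of the control.

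Of the 9 members, 4 were called in 1 direction against both controls. Grin2b and Grm3 were lower in shAdar2 than in either control, and Grin2a and Grin3a were lower in shZfr than in either control. No member was called the same way against both in shAdar1. Grm5 was called higher in shAdar1 and shZfr than in shControl1, and lower in both than in shControl2. Among all genes tested, 15.9% were called lower against both controls in shAdar2, 7.85% in shZfr and 1.99% in shAdar1. The shares called higher against both were 15.2% in shAdar2, 7.95% in shZfr and 1.85% in shAdar1. Opposite calls against the controls made up 2.64% in shAdar2, 2.75% in shZfr and 2.73% in shAdar1.

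**Figure D1:**
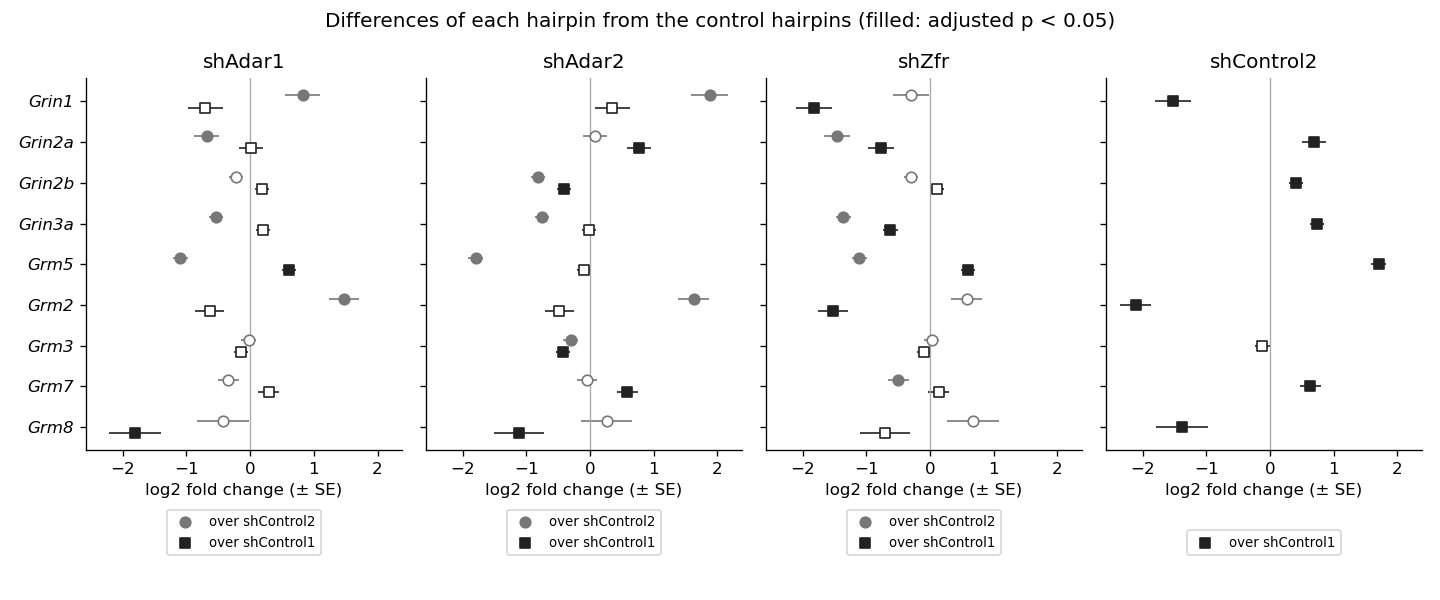
Log2 fold change (x axis, ± SE from the edgeR fit) of each member (rows) in shAdar1, shAdar2 and shZfr over shControl2 (grey circles) and over shControl1 (black squares), and in shControl2 over shControl1. Filled symbols passed an adjusted p of 0.05, and the distance between circle and square in a row is widest for Grm2 and Grm5.

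Grin1, the obligatory NMDA receptor subunit, varied most of the 9. Its mean CPM was 4.48-fold higher in the highest group than in the lowest. It stood at 143 and 104 CPM in shAdar1, 330.3 and 180.5 CPM in shAdar2, 57.8 and 56.1 CPM in shZfr, 76.3 and 63.3 CPM in shControl2, and 164 and 238 CPM in shControl1. The shAdar2 and shControl1 samples overlapped at the top, shAdar1 lay between, and shControl2 lay above shZfr without overlap. Grin1 was lower in shControl2 than in shControl1 (log2 fold change −1.53 ± 0.28 SE, adjusted p = 0.00219).

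Against shControl2, Grin1 was higher in shAdar2 (1.87 ± 0.29 SE, adjusted p = 0.000418) and in shAdar1 (0.82 ± 0.28 SE, adjusted p = 0.0471). The shAdar1 call was lost with any of its 4 libraries left out (0.54 and 1.04 without shAdar1 replicate 1 and 2, 0.92 and 0.66 without shControl2 replicate 1 and 2) and with DESeq2's size factors (0.76). Against shControl1, Grin1 was lower in shZfr (−1.82 ± 0.29 SE, adjusted p = 0.000791), while it did not pass in shAdar1 (−0.70 ± 0.28 SE, adjusted p = 0.114) or shAdar2 (0.35 ± 0.27 SE, adjusted p = 0.323). The shAdar1 difference passed with DESeq2 (−0.72) and without the filter on low counts (−0.70). In shZfr against shControl2 Grin1 stood at −0.29 ± 0.28 SE (adjusted p = 0.467), and passed in the compared groups alone (−0.36). The replicates of shAdar2 were far apart for this gene: the technical libraries of replicate 1 had 287, 381 and 326 CPM, all above replicate 2. Without replicate 2 the difference from shControl1 was 0.71 and passed, and without replicate 1 it was −0.16.

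Grin2b, the GluN2B subunit of the embryonic and newborn cortex, had the highest level per transcript length of the members in shAdar1, shZfr and shControl1. It stood at 643 and 531 CPM in shAdar1, 378 and 400.0 CPM in shAdar2, 565 and 551 CPM in shZfr, 707 and 661 CPM in shControl2, and 513 and 520.2 CPM in shControl1. The shAdar2 samples were the lowest of all 10 and the shControl2 samples the highest. Grin2b fell in shAdar2 to 75.3% of shControl1 (−0.41 ± 0.11 SE, adjusted p = 0.0143) and to 56.9% of shControl2 (−0.81 ± 0.11 SE, adjusted p = 0.000237). The first of these missed the threshold without shControl1 replicate 2 (−0.41, adjusted p = 0.0516) and in a fit of the 4 compared samples (−0.40, adjusted p = 0.064).

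The summed level of the pan-neuronal markers was also lowest in shAdar2, at 4066 to 4394 CPM, against 7831 to 8328 CPM in shControl2 and 6642 to 7063 CPM in shControl1. It was 6644 to 7879 CPM in shAdar1 and highest in shZfr, at 9580 to 9763 CPM. Of these 14 markers, 1 was called higher and 6 lower in shAdar2 than in shControl1, beside 23.2% and 23.2% of all genes. Against shControl2, 4 were higher and 7 lower, beside 32.2% and 27.3%. The part of the marker levels in the lower Grin2b was not tested. Grin2b was also higher in shControl2 than in shControl1 (0.40 ± 0.11 SE, adjusted p = 0.0161), a call lost without shControl1 replicate 1 (0.39), shControl1 replicate 2 (0.41) or shControl2 replicate 1 (0.38). It did not pass in shZfr against shControl2 (−0.29 ± 0.11 SE, adjusted p = 0.0738; it passed with DESeq2 at −0.31 and in the compared groups alone at −0.36) or shControl1 (0.11 ± 0.11 SE, adjusted p = 0.445). In shAdar1 it stood at 0.18 ± 0.11 SE against shControl1 (adjusted p = 0.295) and −0.22 ± 0.11 SE against shControl2 (adjusted p = 0.159), and without shAdar1 replicate 1 the second was −0.40 and passed.

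Grin2a, the GluN2A subunit that appears later in development, was lowest in shZfr and highest in shAdar2 and shControl2. It stood at 44.9 and 33.0 CPM in shAdar1, 69.8 and 61.4 CPM in shAdar2, 23.1 and 22.2 CPM in shZfr, 63.2 and 61.3 CPM in shControl2, and 31.0 and 46.0 CPM in shControl1. Samples of shAdar2 and shControl2 overlapped, as did those of shAdar1 and shControl1, and the shZfr samples lay below all others. Grin2a fell in shZfr to 36.4% of shControl2 (−1.46 ± 0.20 SE, adjusted p = 0.000769), and this passed with any 1 library left out. Of 14 GABAergic neuron markers, 0 were called higher and 6 lower in that comparison (1 and 7 at an unadjusted p under 0.05, 0 and 7 by DESeq2), and of 14 excitatory neuron markers 2 were higher and 2 lower. Among all genes tested, 16.7% were called higher and 14.1% lower there. In shZfr against shControl1, 1 GABAergic marker was called higher and 4 lower, and 4 excitatory markers were higher and 2 lower. Of all genes, 22.8% were higher and 23.4% lower against shControl1. The part of these markers in the Grin2a values was not tested.

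The fall of Grin2a in shZfr against shControl1 was smaller (58.8%, −0.77 ± 0.20 SE, adjusted p = 0.0111) and was lost without shZfr replicate 1 (−0.78), shZfr replicate 2 (−0.73) or shControl1 replicate 2 (−0.45). In shAdar2 Grin2a was higher than in shControl1 (0.77 ± 0.19 SE, adjusted p = 0.00993), a call lost without shControl1 replicate 1 (0.51). Against shControl2 it stood at 0.08 ± 0.19 SE (adjusted p = 0.749). In shAdar1 it was 0.01 ± 0.19 SE against shControl1, and −0.68 ± 0.19 SE (adjusted p = 0.0247) against shControl2, a call lost without shAdar1 replicate 2 (−0.47), shControl2 replicate 1 (−0.70) or shControl2 replicate 2 (−0.74). Between the controls it was higher in shControl2 (0.69 ± 0.19 SE, adjusted p = 0.0175), a call lost without shControl2 replicate 1 (0.69), shControl2 replicate 2 (0.73) or shControl1 replicate 1 (0.44).

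Grin3a, whose product lowers calcium entry through NMDA receptors, gave the steadiest calls of the NMDA subunits. It stood at 61.5 and 61.6 CPM in shAdar1, 55.0 and 50.4 CPM in shAdar2, 36.0 and 33.4 CPM in shZfr, 91.8 and 86.1 CPM in shControl2, and 58.0 and 49.0 CPM in shControl1. The shZfr samples were below, and the shControl2 samples above, all others, and only shAdar2 and shControl1 overlapped. Grin3a fell in shZfr to 39.0% of shControl2 (−1.36 ± 0.12 SE, adjusted p = 7.87e-05) and to 64.9% of shControl1 (−0.62 ± 0.11 SE, adjusted p = 0.00183). Against shControl2 it was also lower in shAdar1 (−0.53 ± 0.11 SE, adjusted p = 0.00648) and shAdar2 (−0.75 ± 0.11 SE, adjusted p = 0.000379). Against shControl1, Grin3a was called neither in shAdar1 (0.20 ± 0.11 SE, adjusted p = 0.249) nor in shAdar2 (−0.02 ± 0.11 SE, adjusted p = 0.901). It was higher in shControl2 than in shControl1 (0.73 ± 0.11 SE, adjusted p = 0.000818). These 5 calls passed under every alternative that kept the control hairpins apart. With both control hairpins pooled, Grin3a was still called lower in shZfr. It did not pass in shAdar1 (−0.21, adjusted p = 0.724) or in shAdar2.

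**Figure D2:**
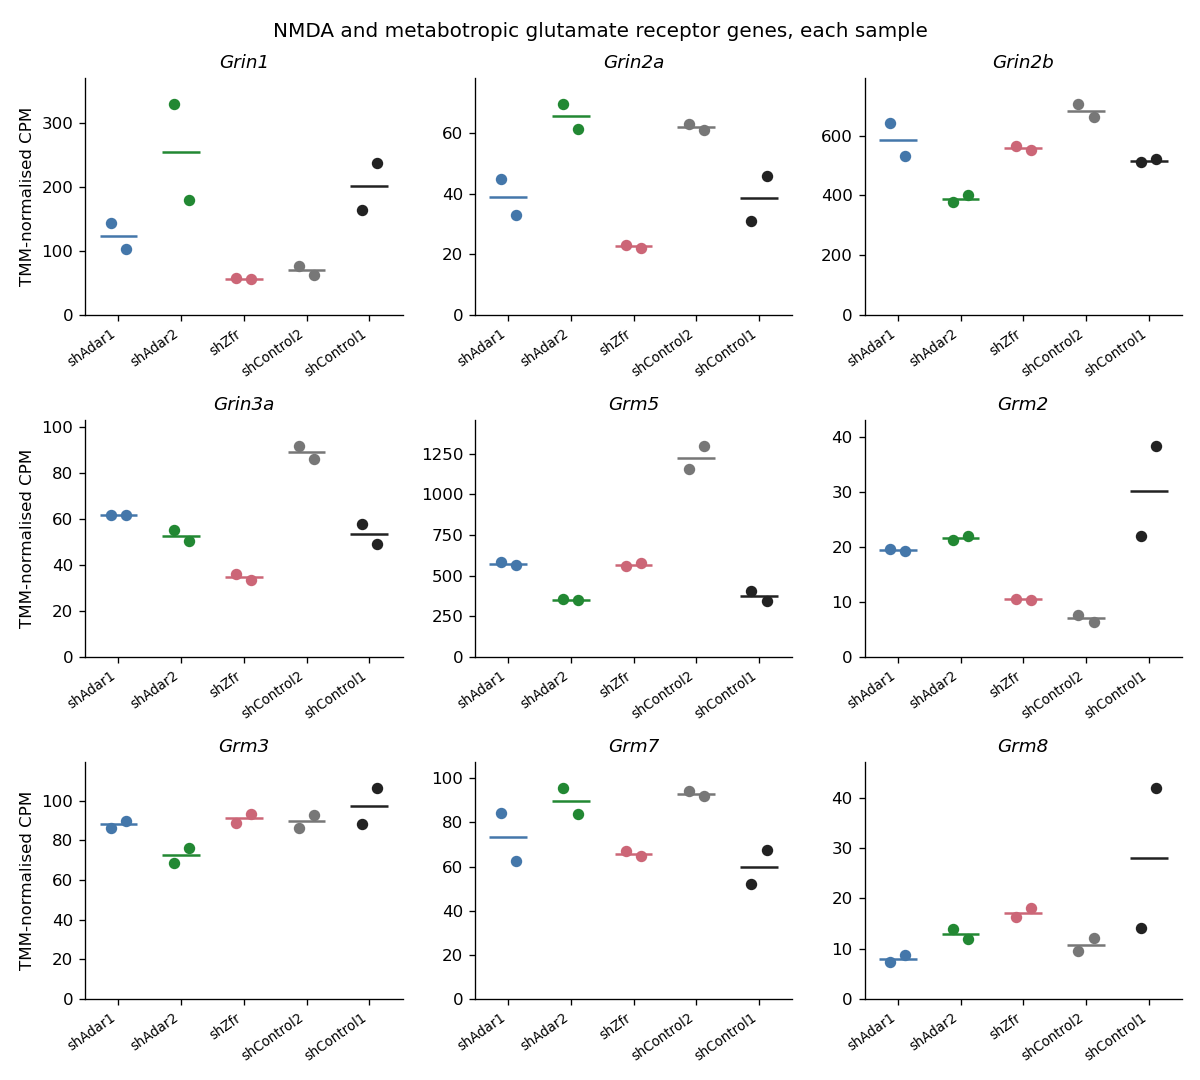
TMM-normalised CPM (y axes, each from 0) of the 9 members in every sample (points) with the mean of each group (bars), for the hairpins shAdar1, shAdar2, shZfr, shControl2 and shControl1 on the x axis. Grm5 in shControl2, at 1153 and 1299 CPM, lies above every other sample, and the shControl1 replicates of Grm8 lie at 14.0 and 42.0 CPM.

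The balance of NMDA subunits, compared per transcript length as TPM (deposited values, scaled for transcript length and depth), differed widely between groups. The ratio of Grin2b to Grin1 was 2.40 and 2.72 in shAdar1, 0.63 and 1.2 in shAdar2, 5.25 and 5.25 in shZfr, 5.01 and 5.66 in shControl2, and 1.70 and 1.18 in shControl1. The shZfr and shControl2 samples had Grin2b about 5 times as high as Grin1, and 1 shAdar2 sample had less Grin2b than Grin1. In the 3 technical libraries of that sample the ratio was 0.71, 0.56 and 0.64. Malat1, a nuclear RNA, took 1.3% to 2.12% of the counts of shAdar2 libraries, 2.20% to 2.45% in shAdar1, 3.33% to 3.35% in shZfr, 3.39% to 3.75% in shControl2 and 1.65% to 1.86% in shControl1. The groups with the highest Malat1 shares, shZfr and shControl2, were thus those with the highest Grin2b to Grin1 ratios. Rn45s, the ribosomal RNA precursor, took 4.20% to 5.44% in shAdar2, 2.77% to 4.47% in shAdar1, 1.81% to 2.20% in shZfr, 1.67% to 4.76% in shControl2 and 1.96% to 2.21% in shControl1. Their part in the ratio was not tested. This ratio was chosen after the values were seen and is given without a test.

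The share of Grin2a in the sum of Grin2a and Grin2b, on the TPM scale, was 10.6% and 9.54% in shAdar1, 23.8% and 20.6% in shAdar2, 6.49% and 6.42% in shZfr, 13.2% and 13.6% in shControl2, and 9.30% and 13.0% in shControl1. The shAdar2 samples had the highest shares and the shZfr samples the lowest, with no overlap with either control. The difference of the means was 11.1 percentage points for shAdar2 against shControl1 and −6.94 points for shZfr against shControl2. An exact two-sided permutation test gave 0.333 for both, which is the smallest p that 2 samples against 2 allow, and 1 for shAdar1 against shControl1.

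**Figure D3:**
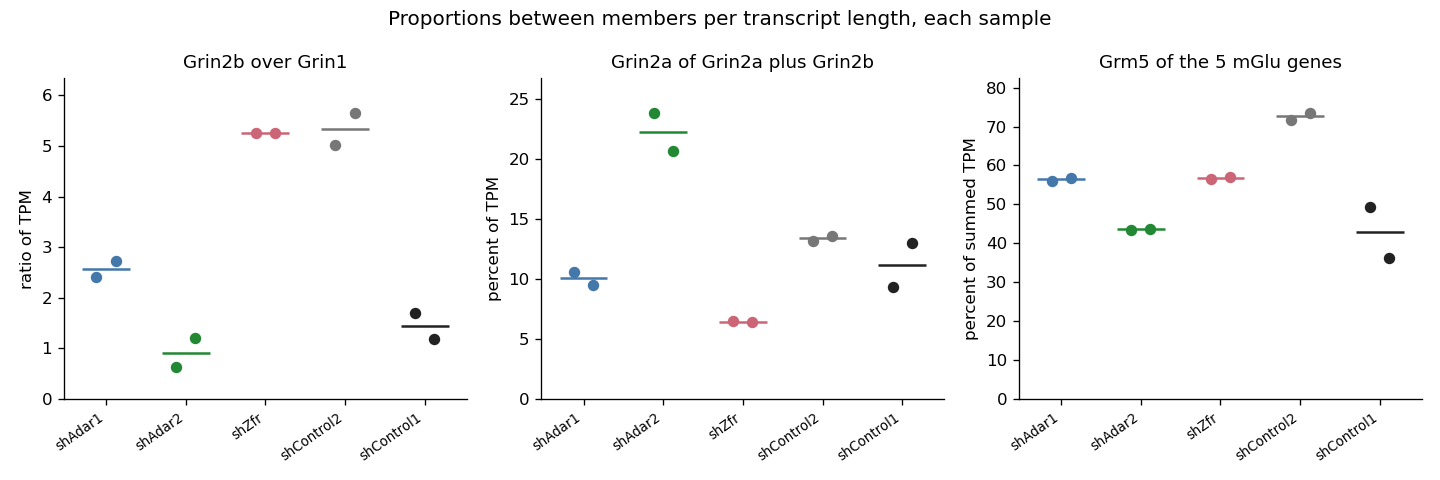
The ratio of Grin2b to Grin1 TPM, the percentage of Grin2a in Grin2a plus Grin2b TPM, and the percentage of Grm5 in the summed TPM of the 5 mGlu genes, for each sample (points) with group means (bars). The shAdar2 samples have the lowest Grin2b to Grin1 ratios and, at 23.8% and 20.6%, the highest Grin2a shares, and shControl2 has the highest Grm5 shares, at 71.8% and 73.5%.

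Grm5, the group I receptor of the set, set shControl2 apart from all other groups. It stood at 584 and 563 CPM in shAdar1, 357 and 349 CPM in shAdar2, 557 and 579 CPM in shZfr, 1153 and 1299 CPM in shControl2, and 408 and 344 CPM in shControl1. The shAdar1 and shZfr samples overlapped, as did those of shAdar2 and shControl1. Grm5 was higher in shControl2 than in shControl1 (1.70 ± 0.12 SE, adjusted p = 2.06e-05). It was lower than in shControl2 in shAdar1 (−1.1 ± 0.11 SE, adjusted p = 0.000317), shAdar2 (−1.80 ± 0.12 SE, adjusted p = 5.98e-06) and shZfr (−1.11 ± 0.11 SE, adjusted p = 0.000197).

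Against shControl1 the direction turned for both shAdar1 (0.61 ± 0.11 SE, adjusted p = 0.00802) and shZfr (0.60 ± 0.11 SE, adjusted p = 0.00225), and shAdar2 stood at −0.09 ± 0.11 SE (adjusted p = 0.528). The shAdar1 call was lost without shControl1 replicate 2 (0.49). With both control hairpins pooled as 4 samples, neither shAdar1 (−0.48, adjusted p = 0.689) nor shZfr (−0.50, adjusted p = 0.546) passed. Grm5 made up 56.0% and 56.9% of the summed TPM of the 5 mGlu genes in shAdar1, 43.5% and 43.6% in shAdar2, 56.7% and 56.9% in shZfr, 71.8% and 73.5% in shControl2, and 49.4% and 36.2% in shControl1.

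Astrocyte markers moved beside Grm5 between the controls, but not in every comparison. The 14 listed markers summed to 1568 to 2329 CPM in shAdar1, 742 to 1193 CPM in shAdar2, 1154 to 1223 CPM in shZfr, 2666 to 3108 CPM in shControl2 and 865 to 1229 CPM in shControl1. The shAdar1 and shZfr samples overlapped in Grm5 but not in these sums. Of the 13 tested, 10 were called higher and 0 lower when shControl2 was set against shControl1, beside 19.9% and 23.2% of all genes. In shZfr against shControl2, 1 was higher and 8 lower, beside 16.7% and 14.1%. In shAdar1 against shControl1, 6 were higher and 0 lower, beside 9.33% and 6.9%. In shZfr against shControl1, where Grm5 was called higher, 4 were higher and 2 lower, beside 22.8% and 23.4%. Where the count was 0, no astrocyte marker was lower at an unadjusted p under 0.05 or by DESeq2. Gjb6 was at 0 in all shAdar1, shAdar2 and shZfr samples and no other listed marker was at 0 throughout a group. The oligodendrocyte lineage markers summed to 457 to 460.3 CPM in shControl2 and 86.7 to 133 CPM in shControl1. They summed to 155 to 428 CPM in shAdar1, 104 to 356 CPM in shAdar2 and 272 to 316 CPM in shZfr. Proliferating progenitor markers summed to 676 to 726 CPM in shControl2 and 299 to 356 CPM in shControl1. Their sums were highest in shZfr, at 1233 to 1316 CPM, and were 357 to 787 CPM in shAdar1 and 199 to 561 CPM in shAdar2. The part of these cell type markers in the Grm5 values was not tested.

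Grm2, a group II receptor, moved with the control hairpin much as Grin1 did. It stood at 19.6 and 19.3 CPM in shAdar1, 21.2 and 21.9 CPM in shAdar2, 10.5 and 10.4 CPM in shZfr, 7.63 and 6.35 CPM in shControl2, and 21.9 and 38.3 CPM in shControl1. No neighbouring groups overlapped, and the shControl1 replicates were the farthest apart. Grm2 was lower in shControl2 than in shControl1 (−2.11 ± 0.24 SE, adjusted p = 0.000182). Against shControl2 it was higher in shAdar1 (1.48 ± 0.24 SE, adjusted p = 0.00192) and shAdar2 (1.62 ± 0.24 SE, adjusted p = 0.000351), and in shZfr stood at 0.58 ± 0.24 SE (adjusted p = 0.1), which passed in the compared groups alone (0.52).

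Against shControl1 Grm2 was lower in shZfr (−1.53 ± 0.24 SE, adjusted p = 0.000708). Its values in shAdar1 (−0.63 ± 0.23 SE, adjusted p = 0.0892) and shAdar2 (−0.49 ± 0.23 SE, adjusted p = 0.104) did not pass, and both passed without shControl1 replicate 1 (−0.98 and −0.84). The first also passed with DESeq2 (−0.65), and the second with technical library 1 alone (−0.72). The 3 technical libraries behind shAdar2 replicate 1 had 15.1, 30.0 and 19.2 CPM, so libraries from the same RNA spread more widely than the 2 shAdar2 replicates.

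Grm3, the other group II receptor, was the most even member, with a 1.34-fold range of group means. It stood at 86.3 and 90.0 CPM in shAdar1, 68.8 and 76.1 CPM in shAdar2, 88.7 and 93.4 CPM in shZfr, 86.3 and 92.8 CPM in shControl2, and 88.0 and 107 CPM in shControl1. The shAdar2 samples lay below all others, and the other 4 groups overlapped in turn. Grm3 fell in shAdar2 to 74.4% of shControl1 (−0.43 ± 0.11 SE, adjusted p = 0.013) and to 80.8% of shControl2 (−0.31 ± 0.11 SE, adjusted p = 0.0409). The first call was lost without shControl1 replicate 2 (−0.29), and the second without shAdar2 replicate 1 (−0.24), shControl2 replicate 1 (−0.39) or shControl2 replicate 2 (−0.28). Both were lost in fits of the 4 compared samples. Between the controls Grm3 stood at −0.12 ± 0.11 SE (adjusted p = 0.419), the only member not called there.

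Grm7, a group III receptor of presynaptic terminals, had a 1.55-fold range of group means. It stood at 84.1 and 62.7 CPM in shAdar1, 95.7 and 83.8 CPM in shAdar2, 66.9 and 64.7 CPM in shZfr, 94.1 and 91.8 CPM in shControl2, and 52.1 and 67.7 CPM in shControl1. Each group overlapped with the next in the order of means. Grm7 was lower in shZfr than in shControl2 (−0.50 ± 0.16 SE, adjusted p = 0.0425), and this was lost without shZfr replicate 1 (−0.52), shZfr replicate 2 (−0.49), shControl2 replicate 1 (−0.49) or shControl2 replicate 2 (−0.52). It was higher in shAdar2 than in shControl1 (0.58 ± 0.16 SE, adjusted p = 0.015), which was lost without shAdar2 replicate 1 (0.48) or shControl1 replicate 1 (0.40). Neither knockdown was called against the other control. Grm7 stood at 0.14 ± 0.16 SE in shZfr against shControl1 (adjusted p = 0.523) and −0.05 ± 0.16 SE in shAdar2 against shControl2 (adjusted p = 0.811). It was higher in shControl2 than in shControl1 (0.63 ± 0.16 SE, adjusted p = 0.0112), which was lost without shControl2 replicate 1 (0.64), shControl2 replicate 2 (0.67) or shControl1 replicate 1 (0.46). In shAdar1 Grm7 stood at 0.29 ± 0.16 SE against shControl1 (adjusted p = 0.25) and −0.34 ± 0.16 SE against shControl2 (adjusted p = 0.134), and without shAdar1 replicate 1 the second was −0.61 and passed.

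Grm8, the other group III receptor, rested on 1 control library. It stood at 7.29 and 8.70 CPM in shAdar1, 13.8 and 11.9 CPM in shAdar2, 16.2 and 18.0 CPM in shZfr, 9.49 and 12.1 CPM in shControl2, and 14.0 and 42.0 CPM in shControl1. Replicate 2 of shControl1 was the highest of the 10 samples, and replicate 1 of that group lay among the knockdowns. Against shControl1 the gene was called lower in shAdar1 (−1.81 ± 0.41 SE, adjusted p = 0.0176), shAdar2 (−1.12 ± 0.40 SE, adjusted p = 0.0424) and shControl2 (−1.38 ± 0.40 SE, adjusted p = 0.0207).

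Without shControl1 replicate 2 these differences of Grm8 were −0.81, −0.13 and −0.38, and none passed. The calls were also lost without shAdar1 replicate 1 (−1.71) or 2 (−1.94), shAdar2 replicate 1 (−1.25) or 2 (−1.03), and shControl2 replicate 1 (−1.20) or 2 (−1.55), each in its own comparison. Against shControl2 no knockdown passed, with −0.43 ± 0.41 SE in shAdar1, 0.26 ± 0.40 SE in shAdar2 and 0.67 ± 0.41 SE in shZfr, though the shZfr value passed in the compared groups alone (0.61). In shZfr against shControl1 it was −0.71 ± 0.40 SE (adjusted p = 0.169), which was −1.29 and passed without shControl1 replicate 1 (adjusted p = 0.00243), and was 0.29 without replicate 2 (adjusted p = 0.364).

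On the TPM scale the order of the members within a group changed at the top. Grin2b led in shAdar1 at 204 ± 24.8 TPM, in shZfr at 223 ± 4.20 TPM and in shControl1 at 196 ± 8.20 TPM. Grm5 led in shControl2 at 451 ± 37.0 TPM. In shAdar2 Grin1 had the highest mean, 181 ± 68.5 TPM, and overlapped with Grin2b at 152 ± 10.7 TPM. Grm2 was lowest in shZfr and shControl2, Grm8 in shAdar1 and shAdar2, and Grin3a in shControl1, where it overlapped with the range of Grm8.

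Some family members outside the set were also called. Grin2d, a GluN2 subunit typical of interneurons and early development, was lower in shZfr than in both shControl2 (−1.31 ± 0.20 SE, adjusted p = 0.00117) and shControl1 (−1.40 ± 0.20 SE). It averaged 3.61 CPM in shZfr and 8.99 CPM in shControl2. Against shControl1 it was lower in shAdar1 (−0.82, adjusted p = 0.0187) and higher in shAdar2 (0.52, adjusted p = 0.0389), and against shControl2 it was called in the same directions (−0.72 and 0.62). Grm4, a group III receptor, was higher in shAdar2 than in shControl1 (1.33 ± 0.21 SE, adjusted p = 0.000858), at 30.1 CPM in shAdar2 and 12.1 CPM in shControl1, and than in shControl2 (0.84 ± 0.20 SE).

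Genes that act with NMDA receptors were counted against both controls, and several of those named differed between the controls too. For these and the lists below, the shares of all genes called higher and lower against the other control were as above. They were 19.3% and 13.9% in shAdar1 and 32.2% and 27.3% in shAdar2, both against shControl2. In shZfr against shControl1 they were 22.8% and 23.4%. Of 25 scaffold and signalling genes tested, 16 were called higher and 2 lower in shAdar2 than in shControl1, beside 23.2% and 23.2% of all genes, with a median log2 fold change of 0.48 beside 0.04 over all genes. Against shControl2 the counts were 11 higher and 5 lower. Src, a kinase of GluN2 subunits, was higher in shAdar2 than in shControl1 (1.1 ± 0.10 SE, adjusted p = 6.37e-05) and than in shControl2 (1.0 ± 0.10 SE). Rasgrf2, a calcium-dependent exchange factor for Ras, was lower in shAdar2 than in shControl1 (−1.97 ± 0.19 SE, adjusted p = 6.83e-05) and than in shControl2 (−1.73 ± 0.19 SE). Neto1, an auxiliary protein of glutamate receptors, was higher in shAdar2 than in shControl1 (2.02 ± 0.26 SE, adjusted p = 0.000298), but stood at 0.07 ± 0.25 SE against shControl2 (adjusted p = 0.828), and it was higher in shControl2 than in shControl1 (1.95 ± 0.26 SE).

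In shZfr, 1 of the 25 scaffold and signalling genes was called higher and 8 lower than in shControl2, beside 16.7% and 14.1% of all genes, and 4 higher and 7 lower than in shControl1. Rasgrf2 was lower than in shControl2 (−1.82 ± 0.19 SE) and than in shControl1 (−2.06 ± 0.19 SE), as was the scaffold Dlg2 (−0.98 ± 0.13 SE and −0.66 ± 0.13 SE). The calcineurin subunit Ppp3ca was lower than in shControl2 (−0.71 ± 0.12 SE) and stood at −0.14 ± 0.12 SE against shControl1 (adjusted p = 0.379). In shAdar1 against shControl1, 5 were called higher and 0 lower, beside 9.33% and 6.9% of all genes. At an unadjusted p under 0.05, 3 were lower there, and DESeq2 called 1 lower. Against shControl2 the shAdar1 counts were 3 higher and 5 lower. The nitric oxide synthase Nos1 was higher in shAdar1 than in shControl1 (1.24 ± 0.19 SE) and stood at −0.14 ± 0.19 SE against shControl2 (adjusted p = 0.606).

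Of 13 tested genes that supply glutamate or the co-agonists, 0 were called higher and 8 lower in shZfr than in shControl2, beside 16.7% and 14.1% of all genes, with a median log2 fold change of −0.92. DESeq2 and an unadjusted p under 0.05 also gave 0 higher. Against shControl1 the counts were 4 higher and 4 lower. Slc1a2, the glial glutamate transporter GLT-1, averaged 190.5 CPM in shZfr and 1054 CPM in shControl2 (−2.47 ± 0.15 SE, adjusted p = 2.95e-05), and was also lower than in shControl1 (−0.63 ± 0.15 SE). Slc6a9, a glycine transporter, averaged 4.73 CPM in shZfr and 26.4 CPM in shControl2, and was lower than in shControl1 by a log2 fold change of −2.18 ± 0.23 SE. Slc1a2, Slc1a3 and Glul are also on the astrocyte list above.

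In shAdar1, 7 of these 13 genes were called higher and 1 lower than in shControl1, beside 9.33% and 6.9% of all genes, whereas 0 were called higher and 4 lower than in shControl2 (0 and 6 at an unadjusted p under 0.05, 0 and 6 by DESeq2). The vesicular glutamate transporter Slc17a6 was higher in shAdar1 than in shControl1 (1.89 ± 0.19 SE, adjusted p = 0.00069) and lower than in shControl2 (−0.69 ± 0.18 SE, adjusted p = 0.0158), and the controls themselves differed by 2.58 ± 0.19 SE (shControl2 over shControl1). In shAdar2, 5 were higher and 3 lower than in shControl1, beside 23.2% and 23.2% of all genes. Against shControl2, 1 was higher and 8 lower. The vesicular transporter Slc17a7 was higher in shAdar2 than in shControl1 (2.14 ± 0.17 SE) and than in shControl2 (1.04 ± 0.17 SE). The serine racemase Srr was lower than in either (−0.98 ± 0.12 SE against shControl1 and −0.64 ± 0.12 SE against shControl2).

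Of 18 genes of group I mGlu signalling, 3 were called higher and 9 lower in shZfr than in shControl2, beside 16.7% and 14.1% of all genes, and 5 higher and 6 lower than in shControl1. Dagla, which makes the endocannabinoid 2-AG, was lower in shZfr than in shControl2 (−1.26 ± 0.15 SE) and than in shControl1 (−1.5 ± 0.15 SE). The G-protein subunit Gnaq was also lower than in both (−0.88 ± 0.11 SE against shControl2 and −0.78 ± 0.11 SE against shControl1). Homer1, which links mGlu5 to the postsynaptic density, was lower in shZfr than in shControl2 (−0.92 ± 0.11 SE) but stood at −0.14 ± 0.10 SE against shControl1 (adjusted p = 0.301). In shAdar2 Homer1 was lower than in shControl1 (−0.87 ± 0.11 SE) and than in shControl2 (−1.65 ± 0.11 SE).

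In shAdar2, 6 genes of the group I list were called higher and 7 lower than in shControl1, beside 23.2% and 23.2% of all genes, and 6 higher and 8 lower than in shControl2. In shAdar1 the counts were 2 higher and 1 lower against shControl1, beside 9.33% and 6.9% of all genes. They were 3 higher and 6 lower against shControl2. Plcb1, the phospholipase downstream of Gq, was called in opposite directions against the controls. It was higher than in shControl1 in shAdar1 (1.72 ± 0.12 SE, adjusted p = 0.00024) and shAdar2 (1.76 ± 0.12 SE, adjusted p = 1.65e-05). It was lower than in shControl2 in shAdar1 (−0.50 ± 0.12 SE, adjusted p = 0.00948) and shAdar2 (−0.46 ± 0.12 SE, adjusted p = 0.007). Between the controls it was higher in shControl2 (2.22 ± 0.12 SE).

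Of 22 genes of group II and III signalling, 1 was called higher and 9 lower in shZfr than in shControl2, beside 16.7% and 14.1% of all genes, and 4 higher and 9 lower than in shControl1. The neuronal adenylyl cyclase Adcy1 averaged 106 CPM in shZfr and 1135 CPM in shControl2 (−3.43 ± 0.28 SE, adjusted p = 6.57e-05), and was also lower than in shControl1 (−3.11 ± 0.28 SE). Rgs4, which shortens Gi/o and Gq signals, was lower in shZfr than in shControl2 (−2.54 ± 0.28 SE) and than in shControl1 (−3.19 ± 0.29 SE). In shAdar1, 4 genes of this list were higher and 2 lower than in shControl1, beside 9.33% and 6.9% of all genes, and 5 higher and 5 lower than in shControl2. In shAdar2, 5 were higher and 4 lower than in shControl1, which as shares of 22 genes lie near the 23.2% and 23.2% of all genes, and 7 higher and 4 lower than in shControl2. The cyclase Adcy5 was higher in shAdar2 than in shControl1 (1.17 ± 0.12 SE) and than in shControl2 (1.49 ± 0.12 SE). The G-protein subunit Gng2 was lower than in either (−1.48 ± 0.15 SE against shControl1 and −2.22 ± 0.15 SE against shControl2).

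**Figure D4:**
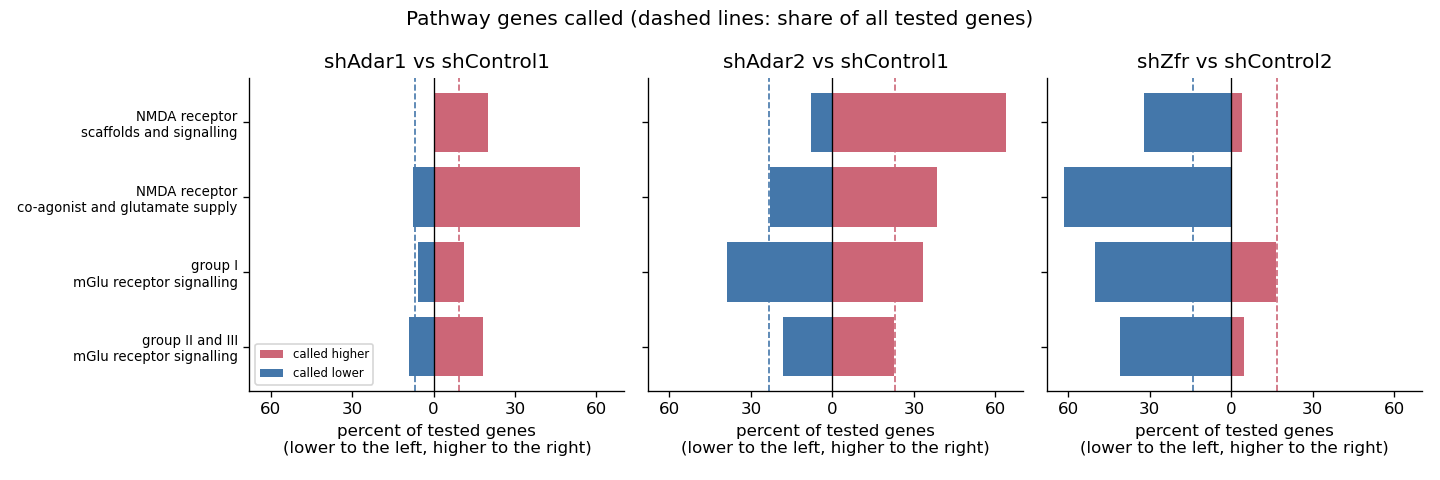
Percentage of the tested genes of 4 pathway lists (rows) called higher (red, to the right) and lower (blue, to the left) in shAdar1 and shAdar2 over shControl1 and in shZfr over shControl2. Dashed lines mark the shares of all tested genes; the bar for scaffolds in shAdar2 stands for 16 of 25 genes called higher.

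The genes whose profile over the 10 samples was most like a member's were found as the smallest root mean square difference of centred log2 CPM among 11110 genes with at least 5 CPM on average. For Grin1 they were Gmpr (0.22) and Tmem191c (0.22), for Grin2a Rapgef4 (0.18) and Gpr63 (0.22), and for Grin2b Erc2 (0.08) and Camsap2 (0.09). For Grin3a they were Nav1 (0.11) and Nipa1 (0.12), for Grm5 Kctd4 (0.16) and Slc35a3 (0.18), and for Grm2 Nfil3 (0.17) and Siah2 (0.21). For Grm3 they were Syt14 (0.06) and Uso1 (0.07), for Grm7 Scn8a (0.09) and Brd2 (0.14), and for Grm8 Dusp6 (0.18) and Hs3st5 (0.20). No member was among the 2 nearest genes of another. The nearest member to Grin1 was Grm2, at rank 327, with a difference of 0.46.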

How the data were processed

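Total RNA was depleted of ribosomal RNA from 250 ng and made into libraries with the KAPA RNA HyperPrep kit, per the labels' protocols. The authors deposited, for each of the 12 libraries, RSEM tables with an expected count (estimated reads per gene, not normalised), TPM and FPKM per gene, per the file headers. RSEM 1.2.30, SAMtools 1.4, STAR 2.5.4b, DESeq2 1.20.0, Trim Galore 0.4.5 and the mm9 build appear in the submitters' processing notes, which state no role or order for them. No source used here gives the strand setting of the counting, so reads of Grin1 and its antisense gene Grin1os (0 to 17 counts) cannot be told apart. The deposited tables of editing sites were not used here.

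Expected counts were rounded to whole numbers after the 3 technical libraries of shAdar2 replicate 1 had been summed, which left 10 samples. Genes were filtered with filterByExpr, scaled by TMM, and edgeR 4.0.16 in R 4.3.3 fitted all 10 samples together. Groups were compared by its quasi-likelihood test with Benjamini-Hochberg adjustment over the 14785 genes tested. Each gene's spread was thus estimated over all groups together, although replicates differed unequally. The median size of the log2 difference between replicates was 0.29 in shAdar2 and 0.071 in shZfr. It was 0.17 in shAdar1, 0.15 in shControl2 and 0.17 in shControl1. Each SE is the size of the log2 fold change divided by the square root of F. The test was checked on simulated data. TPM values, used between genes, are the deposited ones, averaged over technical libraries. Each member's level over shControl1 was also recomputed as TMM-normalised CPM per kb of effective length. Of 36 such values, 17 stayed within the SD of the group's TPM samples and 19 did not. Differences between groups in TPM can thus depart from those in CPM.

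The members, the 13 gene lists and the tests were chosen with earlier results of these data known. Named genes were all members, the targeted genes, up to 3 called genes with the lowest p from each list in the 3 comparisons of the design text (examples are given), and the 2 genes nearest to each member. The value of Grin2d in shZfr against shControl1, and the subunit ratio, were chosen after their values were seen. An item withheld from the text is not reported here. Alternatives were DESeq2 1.42.0, its size factors, no filter, the compared groups alone, a replicate block, each replicate left out, single technical libraries and pooled controls.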

Additional observations from a re-analysis of the deposited data

How the results depend on the processing

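The 35 calls of single members were recomputed under other settings, which gave 219 values, and with 1 library left out, which gave 140. Of the 219 values 201 kept direction and call, 17 lost the call and 1 turned. Of the 140 values 99 kept both and 41 lost the call, where the lone sample of a group is assumed to vary like the others. The cause was not tested where no construction shows it.

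With both control hairpins pooled, members called higher fell to 0 in shAdar1 and 0 in shAdar2, and members called lower became 0 in shAdar1, 1 in shAdar2 and 2 in shZfr. Fits of the compared groups alone called 0 lower in shAdar1 and 0 in shAdar2 against shControl1, 2 higher in shZfr against shControl2, and 0 lower against both controls in shAdar2. DESeq2 called 3 lower and no filter 2 lower in shAdar1 against shControl1. DESeq2's size factors left 1 higher in shAdar1 against shControl2. Lower against both controls in shAdar2 became 1 without the filter and 1 with technical library 2 alone. Shares of all genes called were not computed for these settings or for libraries left out.

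Leaving out 1 library gave, against shControl1, 0 to 1 higher and 0 to 2 lower in shAdar1, and 0 to 3 higher and 0 to 4 lower in shAdar2. It gave 1 to 1 higher and 2 to 5 lower in shAdar1 against shControl2, and 2 to 4 higher in shControl2 against shControl1. Against both controls it gave 0 to 1 higher and 0 to 2 lower in shAdar2, and 1 to 2 lower in shZfr.

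Correlations of replicate differences between groups ran from −0.16 to 0.35, and 3 of 10 were over 0.1, those among shAdar1, shAdar2 and shControl2 (0.10, 0.13 and 0.35). As the labels name no shared batch and the other pairs were at or under 0.1, the replicate numbers were not taken to pair the samples. The replicate block left every count of called members as it was, for example 4 lower in shZfr against shControl2, 2 higher and 3 lower in shAdar2 against shControl1, 1 higher and 1 lower in shAdar1, and 5 higher in shControl2.

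Signs turned, with 1 exception, in values that were not called. With pooled controls they were, in shAdar1, −0.37 for Grin2a, −0.032 for Grin2b, −0.21 for Grin3a, 0.063 for Grm2, −0.058 for Grm7 and −0.48 for Grm5, the exception. They were 0.21 for Grm2 in shAdar2, and −0.83 for Grm2, −0.037 for Grm3 and −0.18 for Grm8 in shZfr. Grin2a in shAdar1 against shControl1 was −0.0075 with DESeq2's size factors, −0.010 in the compared groups alone and −0.0064 with DESeq2. Grin3a in shAdar2 against shControl1 was 0.036 and 0.012 with technical libraries 1 and 3 alone, and Grm3 in shZfr against shControl2 was −0.039 in the compared groups alone.

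With 1 library left out, the values that turned sign ranged in shAdar2 against shControl1 −0.16 to 0.71 for Grin1, −0.14 to 0.10 for Grin3a, −0.22 to 0.031 for Grm5; in shAdar1 against shControl1 −0.25 to 0.33 for Grin2a, −0.27 to 0.0014 for Grm3. They ranged, in shAdar2 against shControl2 −0.026 to 0.16 for Grin2a, −0.15 to 0.038 for Grm7, in shZfr against shControl2 −0.037 to 0.073 for Grm3, in shZfr against shControl1 −0.22 to 0.049 for Grm3, −0.038 to 0.34 for Grm7, −1.29 to 0.29 for Grm8, in shControl2 against shControl1 −0.25 to 0.022 for Grm3.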

Other observations

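RSEM split Grm5 over 2 transcripts, and their abundance-weighted length was 8485 and 8494 bases in shAdar2, against 8453 and 8450 bases in shControl2 and 8457 and 8449 bases in shControl1. It was 8461 and 8467 bases in shAdar1 and 8452 and 8452 bases in shZfr, so the shAdar2 samples had the longest average among the 5 groups. Grin1 was split over 3 transcripts, with weighted lengths between 4100 and 4290 bases over the libraries. Grin3a was split over 2 transcripts, with weighted lengths between 7651 and 7673 bases over the libraries. The members with a single listed transcript give no such value.

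Grin2c, named after its values were seen, had 0.596 and 0.164 CPM in shAdar2, 2.62 and 3.15 CPM in shControl2 and 0.884 and 1.61 CPM in shControl1. By edgeR's test it was called lower in shAdar2 than in shControl1 (−1.50 ± 0.52 SE, adjusted p = 0.0401) and than in shControl2 (−2.70 ± 0.52 SE, adjusted p = 0.00169). Grin3b and Grm6 did not have enough counts to be tested.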
